A study of Brassica oleracea with 7 samples.

Results

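The comparison described here is that of flower bud with leaf in Brassica oleracea, the vegetable species that includes cabbage, broccoli and kale. It uses 2 of the 7 poly(A)+ RNA-seq libraries of the series. The bud library came from closed flower buds sorted to a length of 0.8 cm, and the leaf library from leaves of plants aged 7 weeks. Both organs were taken from plants raised in a greenhouse at 15 to 25 °C with no treatment named in the labels. Open flower, silique 15 days after pollination, stem and root of 7 weeks, and cultured callus served as context. The labels give no cultivar or genotype, no plant age for the buds and no number of plants per library. Each tissue was 1 library of a whole organ, so no difference has a replicate check and no p-value was computed. In such bulk samples, fewer cells of a type and less RNA per cell cannot be told apart.

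A flower bud holds several organs at once. Sepals enclose petals, stamens and the pistil, and inside the anthers the tapetum nourishes the developing pollen and supplies material for its wall. A leaf is made largely of mesophyll, whose chloroplasts carry out photosynthesis and whose most abundant transcripts are known to encode parts of the photosynthetic apparatus. The deposited table gives genes by ID only. None of the IDs (0) matched the 53125 genes of the RefSeq table for the species, so the roles of the genes, and markers of these cell types, are not analysed here.

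Values were FPKM, a level scaled both to the length of the gene model and to the mapped fragments of the library. A gene entered the comparison at an FPKM of 1 or more in bud or leaf, which 26875 of 39481 genes reached. The difference was log2((bud + 1)/(leaf + 1)), and a gene was called higher in an organ at 4-fold or more on this scale, a log2 difference of 2. By construction a called gene had at least 3 FPKM in the higher organ. Near the entry limit, 363 genes had a higher value of 1 to under 1.1 FPKM and were compared, and 347 had 0.9 to under 1 FPKM and were left out. From the width of the deposited intervals, gene models held 10445911 fragments in bud and 10594589 in leaf, so depth was nearly equal. Behind the median value above 0 stood 72 fragments in bud and 81 in leaf. For the other 5 tissues the totals were between 8458621 (flower) and 10597573 (root) fragments.

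Flower bud and leaf differed in fewer genes than most pairs of tissues, and mostly in 1 direction. In total 3063 genes (11.4% of those compared) differed by 4-fold or more, whereas 66.2% of the genes were within 2-fold. The other 20 pairs of tissues, many of which share the bud or the leaf library, had 9.43% to 25.5% of genes past the same limit, and bud against leaf was 19th of the 21 pairs in descending order. Spearman's rho between the 2 organs was 0.684 across the compared genes, which are not independent replicates. Of the genes past 4-fold, 2387 (8.88% of those compared) were higher in bud and 676 (2.52%) were higher in leaf, so that 77.9% were higher in bud. The median gene did not share this tilt, at a log2 difference of -0.01, with quartiles of -0.59 and 0.77.

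**Figure D1:**
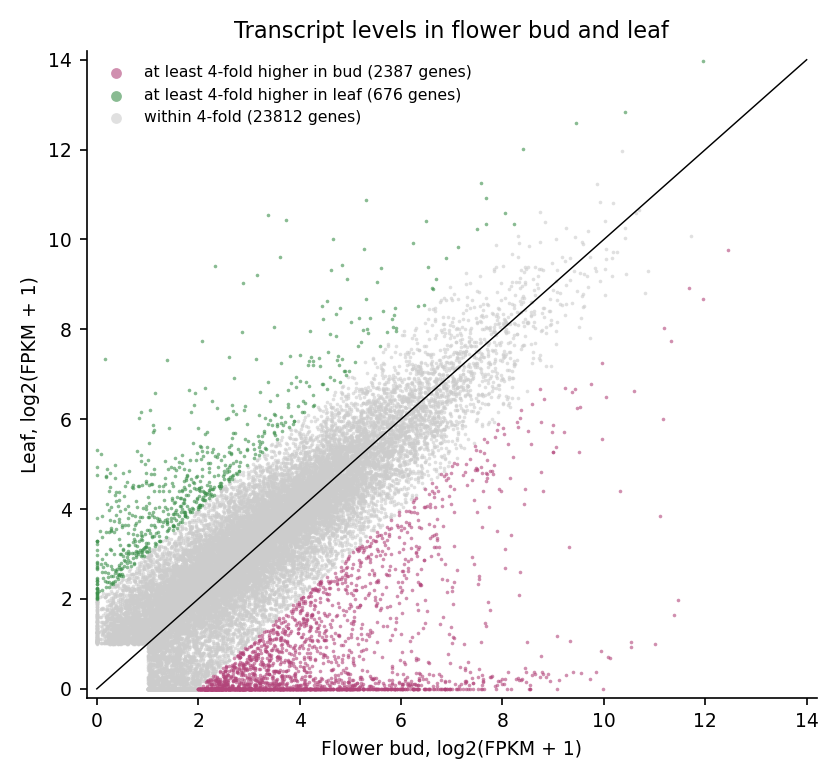
Level of each of the 26875 compared genes in bud (x axis) and leaf (y axis), both as log2(FPKM + 1), with 1 library per organ; the line marks equal levels. The 2387 genes higher in bud include many that lie along the bottom edge, at or near 0 FPKM in leaf, whereas the 676 genes higher in leaf mostly lie off the left edge.

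The tilt towards bud grew with the size of the difference. At 2-fold, 5554 genes (20.7%) were higher in bud and 3537 (13.2%) in leaf. At 8-fold there were 1238 (4.61%) in bud and 195 (0.726%) in leaf, and at 16-fold 648 (2.41%) in bud and 57 (0.212%) in leaf. At 64-fold, 188 genes (0.7%) were higher in bud and 6 (0.0223%) in leaf, and at 256-fold 40 (0.149%) were higher in bud and 0 (0%) in leaf. The share of genes higher in bud was thus 61.1% at 2-fold and 86.4% at 8-fold. Rescaling of the columns left the direction in place. The share at 4-fold was 79.9% after trimmed mean rescaling and 74.6% after rescaling to equal sums of FPKM, the highest and lowest of 4 rescalings.

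**Figure D2:**
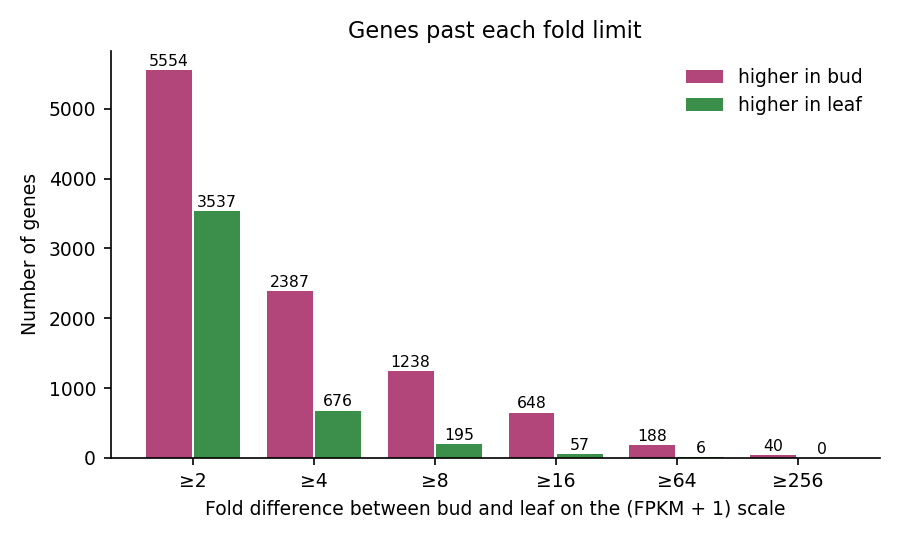
Number of genes (y axis) at or past each fold limit (x axis, on the FPKM + 1 scale), for genes higher in bud (left bar) and in leaf (right bar); limits are nested and bars carry no error because each organ had 1 library. Counts were 5554 in bud and 3537 in leaf at 2-fold, and 188 in bud and 6 in leaf at 64-fold.

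Genes higher in bud were often not seen in leaf at all, whereas genes higher in leaf usually kept some signal in bud. Of the 2387 genes higher in bud, 938 (39.3%) were listed at 0 in leaf, and 1419 (59.4%) rested on 3 or fewer fragments there. Of the 676 genes higher in leaf, 37 (5.47%) were listed at 0 in bud and 121 (17.9%) had 3 or fewer fragments. Over all 26875 genes compared, 1622 were listed at 0 in leaf and 193 in bud. Zeros were thus rarer in bud among the compared genes as a whole, not only in the called sets. The genes higher in bud had a median of 14.7 FPKM in bud and 0.130 FPKM in leaf. The genes higher in leaf had a median of 2.14 FPKM in bud and 20.5 FPKM in leaf. In the lower organ, the median count was 1 fragment for the bud set and 22 fragments for the leaf set. With the floor of 3 fragments per library in place of 0, the 896 bud genes at 0 in leaf that had a coding length were at least 32.5-fold higher in bud at the median. The 35 such genes higher in leaf were at least 7.26-fold higher in leaf at the median.

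Presence in 1 organ, counted by level from the same bud and leaf values, favoured bud. An FPKM of 1 or more was reached in bud but not in leaf by 3754 genes, and in leaf but not in bud by 1940 genes, while 21181 reached it in both. Among genes at 10 FPKM or more in 1 organ and under 1 FPKM in the other, 861 (3.2% of the genes compared) were the bud ones and 82 (0.305%) the leaf ones. By construction all of them are among the genes called at 4-fold, so they are no separate result. Of these, 421 genes of bud and 4 genes of leaf were listed at 0 in the other organ. In bud, 113 of the 861 reached 100 FPKM, and in leaf 1 of the 82 did.

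The called genes made up different shares of the 2 organs' total signal, in the direction fixed by the calls, which used the same values. The genes higher in bud supplied 22.0% of the summed FPKM of bud and 1.42% of that of leaf. The genes higher in leaf supplied 1.85% in bud and 14.6% in leaf. The 10 most abundant genes of each library took 4.93% of the sum in bud and 7.85% in leaf. Of the 100 most abundant genes in bud, 39 were 4-fold higher in bud and 3 were 4-fold higher in leaf. Of the 100 in leaf, 29 were 4-fold higher in leaf and 1 was 4-fold higher in bud. Over all genes compared, 8.88% were higher in bud and 2.52% in leaf. The lists were ranked by the values that also set the calls, which favours calls in the list's own organ. Both lists of 100 held 41 of the same genes.

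The 2 largest differences in favour of bud were in genes almost silent in the other 6 tissues. Bol043888 (Scaffold000004, 3319169 to 3321616, coding length 1167 bases) was at 2057 FPKM in bud (deposited interval 2034 to 2080) and 0.994 FPKM in leaf (0.497 to 1.49). It had 1.05 FPKM in flower, 0.971 in root, 0.314 in stem, 0.0619 in silique and 0 in callus. The log2 difference was 10.01, with a range of 9.67 to 10.44 from the interval bounds, and rested on 32791 fragments in bud and 16 in leaf. Bud stood apart from all other libraries, none of which passed 1.1 FPKM.

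Bol008856 (Scaffold000242, 589999 to 594509, coding length 639 bases) was at 1007 FPKM in bud (985 to 1028) and was listed at 0 in leaf. Against the leaf floor of 3 fragments, 0.340 FPKM, it was at least 2958-fold higher in bud. It had 1.13 FPKM in flower, 1.03 in root, 0.226 in silique, 0.115 in stem and 0 in callus. Its pattern over the 7 libraries was like that of Bol043888, with bud alone high.

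The largest differences in favour of leaf were smaller, and both genes were also abundant in silique and stem. Bol025663 (Scaffold000086, 643380 to 643973) was at 0.123 FPKM in bud, on 1 fragment, and at 161 FPKM in leaf (152 to 170). The leaf level was 1307 times the bud level, with a counting interval of 235 to 51626 from the single bud fragment. It reached 829 FPKM in silique and 509 in stem, and 56.5 in flower, 16.1 in root and 14.1 in callus. Its coding length of 594 bases equals its locus span, so it is a gene without introns in these models, a class that was rare in bud (below).

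Bol003570 (Scaffold000347, 296420 to 297024, coding length 465 bases) was at 9.45 FPKM in bud (7.01 to 11.9) and 1504 FPKM in leaf (1474 to 1535). The log2 difference was -7.17 (-7.58 to -6.84), on 60 fragments in bud and 9648 in leaf. It was at 752 FPKM in silique, 483 in stem, 373 in root, 77.6 in flower and 39.8 in callus. Bud was the lowest of its 7 libraries.

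The most abundant genes among those called had modest differences between the organs. In bud these were Bol025304 (Scaffold000088, 708026 to 709393, coding length 360 bases), at 5554 FPKM in bud and 875 in leaf, and Bol040169 (Scaffold000014, 754017 to 754986, coding length 546 bases), at 3946 FPKM in bud and 409 in leaf. The log2 difference was 2.66 (2.60 to 2.73) for Bol025304 and 3.27 (3.20 to 3.34) for Bol040169. Neither was highest in bud. Bol025304 was at 7548 FPKM in silique, 6185 in flower, 4024 in stem, 244 in callus and 12.5 in root, and Bol040169 at 9211 FPKM in stem, 6609 in silique, 2212 in callus, 1790 in flower and 2.37 in root. Both loci overlap a neighbouring locus, and since the labels name no step that marks strand, reads of the neighbours cannot be told apart.

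In leaf, Bol017820 (Scaffold000143, 929116 to 929873, coding length 405 bases) was the most abundant gene of the library. It had 3998 FPKM in bud and 16016 FPKM in leaf, where it rested on 89452 fragments. The log2 difference of -2.002 (-2.031 to -1.973) lay at the limit for a call. The call ended after upper quartile rescaling (-1.960), trimmed mean rescaling (-1.927) and rescaling to the fragments in gene models (-1.996), and was kept with equal sums of FPKM. It had 3451 FPKM in silique, 2821 in stem, 1364 in flower, 388 in callus and 44.9 in root. Bol034788 (Scaffold000038, 2103179 to 2104462, coding length 507 bases) was at 1367 FPKM in bud and 7331 FPKM in leaf, a log2 difference of -2.42 (-2.47 to -2.38). Its other levels were 4348 FPKM in root, 2535 in callus, 1544 in silique, 1445 in stem and 746 in flower. Leaf was the highest of the 7 libraries for both genes.

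The other 5 tissues, whose libraries took no part in the calls, separated the 2 sets of genes. Outside bud and leaf, open flower was the highest tissue for 1245 of 2301 genes higher in bud with any signal there (54.1%, 95% Wilson interval 52.1% to 56.1%). It was the highest for 60 of 675 genes higher in leaf (8.89%, 6.97% to 11.3%) and for 5214 of 26705 of all genes compared (19.5%). Among genes 64-fold or more higher in bud, flower was the highest for 139 of 183 (76.0%). Any value above 0 counted here, also a trace. Of the 2387 genes higher in bud, 1775 (74.4%) reached 1 FPKM in flower. That share lay below the 82.1% over all genes compared and above the 67.2% of the genes higher in leaf. Wilson intervals here treat genes as independent draws and cover counting error only.

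No other tissue took so large a share of the genes higher in leaf. Callus was the highest for 218 of the 675 (32.3%), silique for 143 (21.2%), stem for 140 (20.7%) and root for 114 (16.9%). Over all genes compared the shares were 33.2% for callus, 20.8% for silique, 12.8% for stem and 13.8% for root. The stem share of the leaf set (interval 17.9% to 24.0%) and the root share (14.25% to 19.9%) thus lay above those over all genes. After trimmed mean rescaling of all 7 columns the stem share was 25.9% in the leaf set and 17.9% over all genes. The root share, then 25.9% in the leaf set, came close to the 25.4% over all genes. The callus share was then 18.3% in the leaf set and 15.3% over all genes, so callus no longer ranked first among the leaf genes. The same rescaling gave flower 56.7% of the bud set and 25.9% of all genes.

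**Figure D3:**
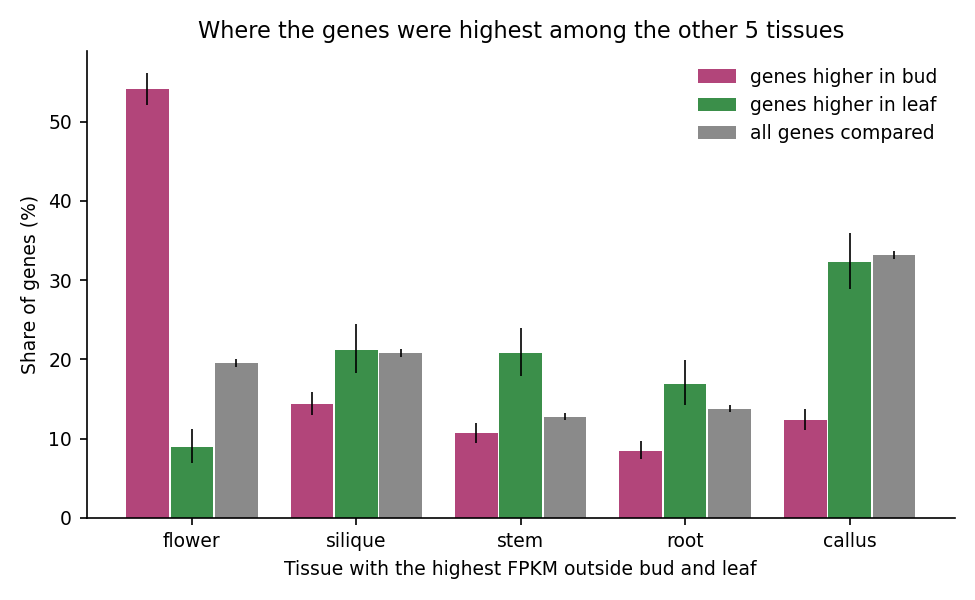
Share of genes (y axis, percent) whose highest FPKM outside bud and leaf was in each of 5 tissues (x axis), for genes higher in bud (left), genes higher in leaf (middle) and all genes compared (right); bars carry 95% Wilson intervals for counting error. Flower took 54.1% of the genes higher in bud, 8.89% of those higher in leaf and 19.5% of all genes.

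The levels themselves showed the same split. The genes higher in bud had a median of 6.57 FPKM in flower, 0.897 in silique, 0.657 in callus, 0.433 in stem and 0.150 in root. For the genes higher in leaf the medians were 5.76 FPKM in callus, 3.54 in silique, 3.48 in stem, 2.31 in root and 2.19 in flower. Over all genes compared they were 7.81 FPKM in callus, 6.33 in silique, 5.36 in flower, 5.07 in stem and 3.80 in root. The bud set thus lay below all genes in 4 tissues and above them in flower alone, whereas the leaf set lay below them in all 5.

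Among the genes compared, those seen in few other tissues were far more often higher in bud. All of them entered through bud or leaf, the values that also set the calls. Of the compared genes, 3754 reached 1 FPKM in bud and not leaf, and 1940 in leaf and not bud. How much of the gradient follows from this entry rule was not tested. Of the 1450 compared genes with an FPKM under 1 in all of the other 5 tissues, 28.1% were higher in bud and 2.48% higher in leaf. With 1 other tissue the shares were 36.2% in bud and 2.44% in leaf, and with all 5 they were 3.19% in bud and 1.67% in leaf. Most of the peak at 1 tissue came from flower. Of the 843 genes detected outside bud and leaf in flower alone, 562 (66.7%) were higher in bud and 5 (0.593%) higher in leaf. With silique as the only other tissue, 46 of 306 genes were higher in bud and 12 in leaf. With callus, 23 of 402 were higher in bud and 13 in leaf. With stem, 11 of 147 were higher in bud and 8 in leaf, and with root, 9 of 102 in bud and 6 in leaf.

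**Figure D4:**
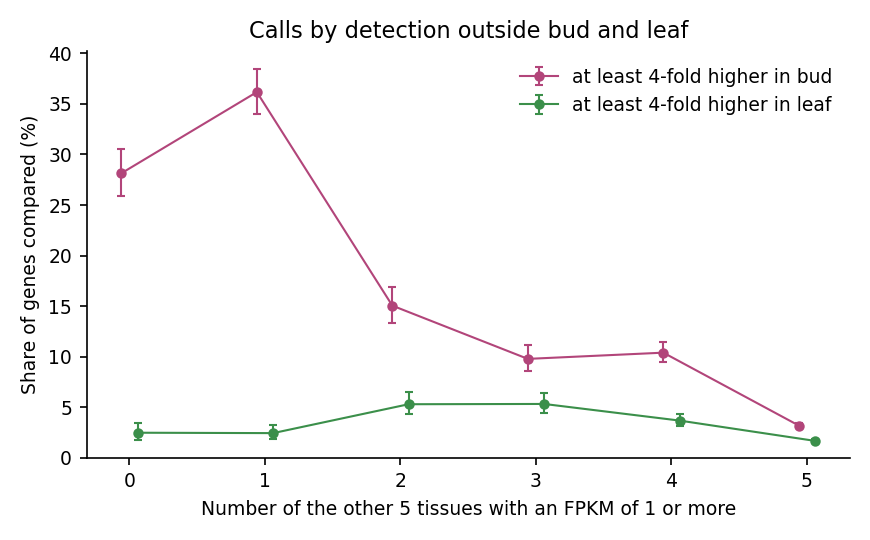
Share of compared genes (y axis, percent) at least 4-fold higher in bud or in leaf, by the number of the other 5 tissues in which the gene had an FPKM of 1 or more (x axis); points carry 95% Wilson intervals for counting error. The share higher in bud was 36.2% at 1 other tissue and 3.19% at 5, whereas the share higher in leaf stayed between 1.67% and 5.33%. Genes entered only through their level in bud or leaf, which also set the calls.

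Bud calls were more frequent at both ends of the range of levels in flower than at 1 to under 100 FPKM, as they were in the other 4 tissues. A gene at 0 in a given tissue entered the comparison only through its level in bud or leaf, which also set its call. The part of this entry rule in the shares at 0 FPKM was not tested. Among compared genes listed at 0 in flower, 26.1% were higher in bud, against 6.01% of genes at 1 to under 10 FPKM in flower and 25.5% of those at 100 FPKM or more. At 0 FPKM the shares were higher in callus (55.2%), silique (51.2%), stem (47.6%) and root (34.8%) than in flower. At 100 FPKM or more they were lower there, at 11.2% in callus, 12.1% in silique, 12.0% in stem and 6.63% in root. Genes at 1 to under 10 FPKM in these 4 tissues had shares of 4.06% (root) to 4.66% (silique). The 861 genes at 10 FPKM or more in bud and under 1 FPKM in leaf included 615 (71.4%) that reached 1 FPKM in flower, against 82.1% of all genes compared. Fewer of them reached it in silique (28.3%, against 83.1% of all genes compared), callus (25.7%, against 84.9%), stem (24.3%, against 79.0%) and root (16.5%, against 71.9%). All 5 shares thus lay below those over all genes, by the least in flower. Another 186 of them (21.6%) were under 1 FPKM in all tissues but bud. Over all genes compared, 1450 (5.4%) were under 1 FPKM in all of the other 5 tissues. Such genes entered the comparison only through bud or leaf. Of the 82 corresponding leaf genes, 73.2% reached 1 FPKM in callus, 59.8% in stem, 47.6% in silique, 47.6% in root and 36.6% in flower. These shares were all below those over all genes compared. In leaf alone, 9 (11.0%) reached 1 FPKM, to be read beside the same 5.4%.

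As examples, the gene with the largest difference in each direction is given for each next tissue, the highest tissue outside bud and leaf. These genes were picked by their levels, so they illustrate the patterns and add no evidence for them. With flower as the next tissue, Bol045890 (Scaffold000002, 6843302 to 6844783, coding length 444 bases) was at 2673 FPKM in bud and 2.12 FPKM in leaf, a log2 difference of 9.74 (9.26 to 10.45). It had 40.9 FPKM in flower, 1.32 in root, 0.660 in stem, 0.181 in callus and 0 in silique, and its locus overlaps a neighbour. In the other direction, Bol040745 (Scaffold000012, 485593 to 487589, coding length 813 bases) was at 1.08 FPKM in bud and 72.6 FPKM in leaf, a log2 difference of -5.14 (-5.76 to -4.66). It had 18.9 FPKM in flower and no more than 7.03 FPKM, in callus, elsewhere.

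With silique as the next tissue, Bol035888 (Scaffold000032, 2368320 to 2370587, coding length 1776 bases) was at 536 FPKM in bud and 1.27 FPKM in leaf, a log2 difference of 7.89 (7.60 to 8.24). It was shared by the 3 reproductive libraries, with 294 FPKM in silique and 265 in flower, against 2.39 in stem, 1.04 in callus and 0.329 in root. The leaf gene for silique was Bol025663, described above.

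With stem as the next tissue, Bol002145 (Scaffold000400, 5474 to 9574, coding length 1035 bases) was at 319 FPKM in bud and 3.22 FPKM in leaf, a log2 difference of 6.24 (5.91 to 6.65). It was low only in leaf and root, with 1037 FPKM in stem, 958 in silique, 291 in flower, 266 in callus and 0.494 in root. Bol044741 (Scaffold000002, 6111151 to 6113652, coding length 528 bases) was at 0.832 FPKM in bud and 70.2 FPKM in leaf, a log2 difference of -5.28 (-6.07 to -4.69). It was near 0 in all 3 reproductive libraries, with 0.137 FPKM in flower and in silique, against 30.5 in stem, 21.7 in root and 6.41 in callus.

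With root as the next tissue, Bol024667 (Scaffold000092, 1291028 to 1292469, coding length 735 bases) was at 104 FPKM in bud and 0.0986 FPKM in leaf, where it rested on 1 fragment. The ratio was 1055, with a counting interval of 189 to 41684. It had 40.5 FPKM in root, 7.45 in callus, 6.20 in flower, 1.47 in silique and 0.598 in stem. Bol025488 (Scaffold000087_P1, 688376 to 689723, coding length 1167 bases) was at 38.9 FPKM in bud and 1873 FPKM in leaf, a log2 difference of -5.55 (-5.69 to -5.43). It was also abundant in root (1170 FPKM) and callus (897), with 118 FPKM in silique, 27.6 in flower and 8.48 in stem.

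With callus next, Bol024864 (Scaffold000090, 161645 to 166118, coding length 1764 bases) was at 143 FPKM in bud and 0.390 FPKM in leaf, a log2 difference of 6.69 (6.40 to 7.03). Callus was slightly higher than bud at 157 FPKM, followed by stem at 33.3, root at 12.4, silique at 9.64 and flower at 5.32. Bol021619 (Scaffold000114, 395693 to 399743, coding length 303 bases) was at 12.3 FPKM in bud and 1393 FPKM in leaf, a log2 difference of -6.71 (-7.18 to -6.34). It had 146 FPKM in callus, 32.9 in silique, 27.7 in flower, 3.14 in root and 2.66 in stem. The loci of both genes overlap a neighbouring locus.

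**Figure D5:**
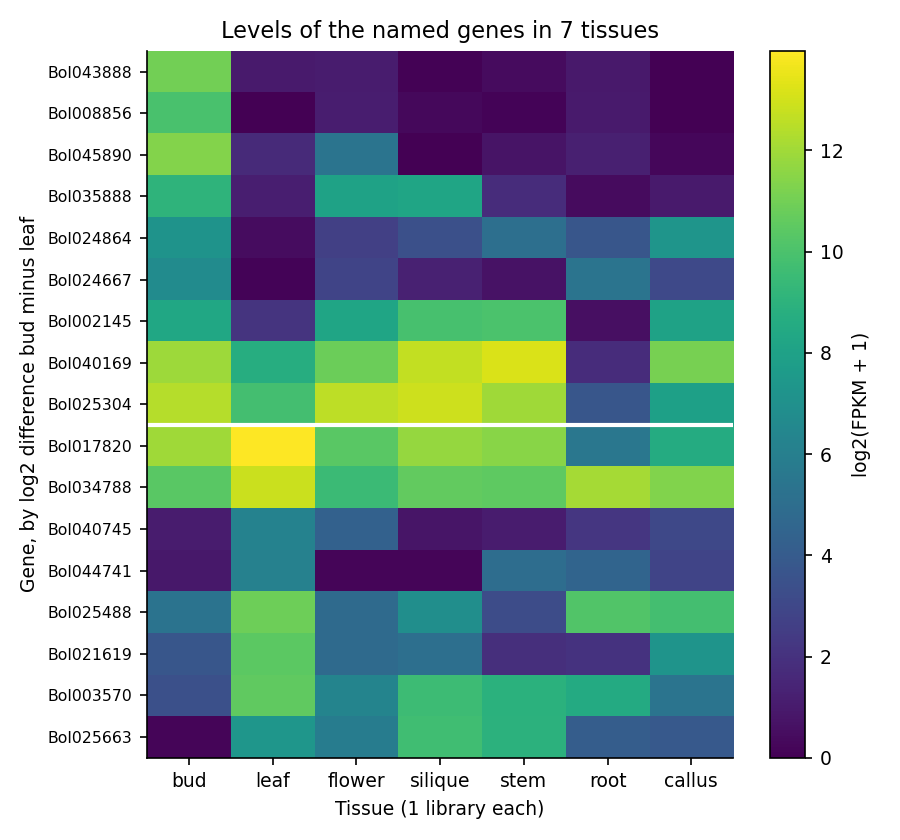
Level of the 17 named genes (rows, ordered by the log2 difference between bud and leaf) in 7 tissues (columns, 1 library each), coloured by log2(FPKM + 1); the white line separates genes higher in bud, above, from genes higher in leaf, below. Bol043888 and Bol008856 are bright in bud alone, whereas Bol017820 and Bol034788, both higher in leaf, are bright in most tissues.

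Genes higher in either organ were shorter than the compared genes as a whole. The implied coding length had a median of 891 bases (quartiles 546 and 1371) for genes higher in bud and 765 bases (475.5 and 1197) for genes higher in leaf, against 1026 bases (621 and 1545) over all genes compared. Of the compared genes of 621 bases or less, 11.3% were higher in bud and 3.99% in leaf. Of those of 1548 bases or more the shares were 6.25% in bud and 1.32% in leaf. Shorter genes gather fewer fragments at the same FPKM, and the part of counting error in this gradient was not tested. Median locus spans were 1590 bases for the bud set and 1434.5 bases for the leaf set, and 1890 bases over all genes.

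Genes without introns were missing from the bud set. Among genes with an implied coding length, 0 of 2292 higher in bud had a coding length equal to the locus span (upper Wilson bound 0.167%), against 27 of 651 higher in leaf (4.15%, 2.87% to 5.97%) and 167 of 25453 over all genes compared (0.656%). The gap reached beyond the called genes. Of 1194 intronless genes in the table, 66 (5.53%) had an FPKM of 1 or more in bud, with a highest level of 15.8 FPKM, against 138 (11.6%) in leaf, with a highest level of 161 FPKM. Bud had the lowest share of the 7 tissues, which ranged up to 29.7% in callus. Among genes with introns, bud had the highest share of the 7, with 76.2% against 70.2% in leaf. The gene IDs run from 96 to 45937 and the table lacks rows for 6361 of these numbers; whether intronless genes expressed in bud are among them was not tested. The 27 leaf genes, Bol025663 among them, therefore rest on a class of genes with few values in bud.

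The neighbours of genes higher in an organ were themselves higher in it more often than compared genes as a whole. Among the compared neighbours of genes higher in bud, 446 of 3355 (13.3%) were also higher in bud, against 8.85% over the compared neighbours of all compared genes. For leaf, 56 of 926 (6.05%) were also higher in leaf, against 2.44%. Without neighbours whose loci overlap, the shares were 12.2% for bud and 5.44% for leaf. Neighbours are consecutive rows on a scaffold, so genes that have no row can separate them. Near-identical copies in tandem can share reads, and their part in these shares was not tested.

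Runs of 3 or more adjacent genes numbered 33 for bud, with 106 genes, and 2 for leaf, with 6 genes. The bud set was also the larger, with 2387 genes (8.88% of those compared) against 676 (2.52%) for leaf. The numbers of runs to be had from sets of these sizes were not computed, so the 2 counts do not compare clustering. The longest run lay on Scaffold000004 from 3312657 to 3328892 and held 5 genes higher in bud, with Bol043888 in the middle. In order along the scaffold their levels in bud were 37.5, 1084, 2057, 68.8 and 40.3 FPKM, and no member passed 0.994 FPKM in leaf or 1.05 FPKM in the other 5 tissues. Bol008856 was the last of a run of 4 on Scaffold000242 from 566810 to 594509. The members had 464, 163, 164 and 1007 FPKM in bud, no more than 0.302 FPKM in leaf and no more than 1.13 FPKM elsewhere. Both genes with the largest bud difference thus stood beside genes of the same pattern. In the run on Scaffold000242, 1 member overlaps a locus outside the run, while the members do not overlap each other.

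The other 4 runs of 4 for bud differed in their levels outside bud. A run on Scaffold000055 from 637154 to 650929 was shared with open flower, with 35.0, 87.4, 12.9 and 25.0 FPKM in bud, at most 0.135 FPKM in leaf, and 23.5, 85.1, 26.5 and 17.7 FPKM in flower. In the run on Scaffold000092 from 673996 to 690088 the levels in bud were 11.7, 11.8, 374 and 847 FPKM. Its members had no more than 0.161 FPKM in leaf and no more than 0.964 FPKM elsewhere. The run on Scaffold000032 from 1572432 to 1626051 held a gene expressed in all 7 libraries, at 310 FPKM in bud, 60.4 FPKM in leaf and 868 FPKM in flower. Its other members had 14.1, 6.14 and 6.38 FPKM in bud and no more than 0.289 FPKM in leaf, and reached at most 10.1 FPKM elsewhere, in stem. Likewise, the run on Scaffold000132 from 1038867 to 1061293 held a gene at 126 FPKM in bud, 26.9 FPKM in leaf and 899 FPKM in flower. The rest of that run had 25.6, 3.74 and 8.93 FPKM in bud, no more than 0.0974 FPKM in leaf and at most 6.92 FPKM elsewhere, in flower.

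For leaf, a run of 3 on Scaffold000114 from 395693 to 400216 begins with Bol021619. Its members had 12.3, 5.03 and 29.5 FPKM in bud and 1393, 64.6 and 556 FPKM in leaf. Bol021620 lies inside the locus of Bol021619, and Bol021621 starts inside it, so reads of these members cannot be told apart where they overlap. The other run of 3, on Scaffold000047_P1 from 409428 to 450957, had 0.0486, 0 and 0 FPKM in bud and 10.3, 8.41 and 12.99 FPKM in leaf. It reached at most 3.27 FPKM elsewhere, in root. These are all runs of 4 or more for bud and of 3 for leaf, a limit set after the values were seen.

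The called genes were spread over the scaffolds with the most compared genes. Of 699 scaffolds, 14 had 200 or more compared genes, and the others were not examined in this way. On these 14, 6.33% to 11.9% of the compared genes were higher in bud, with a median of 8.43%. The share higher in leaf ranged between 0.826% and 3.08% on the same scaffolds, with a median of 2.08%. These scaffolds all had more genes higher in bud than in leaf.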

How the data were processed

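The authors deposited 1 table that holds, per the file headers, an FPKM value and its interval for every gene and tissue. The submitters' processing notes name TopHat 1.0.13. The build, annotation and counting program were not given in the sources used here. Positions therefore are those of the deposited table, with starts raised by 1. The interval width was read as 2 standard deviations on each side of a count, which gave whole fragments within 0.02 (wider for high counts) for 88.8% of 215412 values above 0. Coding lengths came from these fragments. They were multiples of 3 for 99.9% of 32009 genes with a whole length, and 94.7% of the compared genes had one. A gene was called intronless where its length was within 0.2% of its locus span. PCR copies carried no molecular identifiers, so intervals and the floor of 3 fragments cover counting error only.

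Computations used Python 3.11.15, numpy 2.4.6, pandas 2.3.3 and scipy 1.17.1. The code for the calls was also run on simulated counts with counting error only. These held no spread between plants or libraries, so they cannot check the calls against such spread. Genes named are the 2 with the largest difference and the 2 most abundant called genes in each direction, and the 1 with the largest difference for each next tissue, with 10 FPKM or more in bud or leaf. The next tissue also had to reach 10 FPKM. The genes compared, the rules and the alternatives were chosen with earlier results of these data known. The 4 lists of cell type markers had 0 members among the IDs, and no value was computed for them.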

Additional observations from a re-analysis of the deposited data

How the results depend on the processing

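No paired analysis was possible because bud and leaf were sequenced once each and no test between samples was run. Among the main values, 70 kept to within 1.5 times the reported count, or to the counting interval of a share or median, and 24 moved. The share of called genes that were higher in bud stayed above 50% under all of these alternatives. The filters on low values changed no 4-fold count, because a called gene has at least 3 FPKM by construction. With a pseudocount of 0.1 instead of 1, 4019 genes were higher in bud and 1592 in leaf (71.6% in bud), and with 0.5 the share was 76.1%. At 2-fold 5554 genes were higher in bud and 3537 in leaf (61.1% in bud), and at 8-fold 1238 in bud and 195 in leaf (86.4% in bud). Trimmed mean rescaling gave a share of 79.9% and equal sums of FPKM 74.6%. The median log2 difference was 0.032 after upper quartile rescaling, 0.060 after trimmed mean rescaling and -0.11 with equal sums. The share of bud genes next highest in flower was 46.9% with a pseudocount of 0.1, 62.5% at 8-fold and 56.7% after rescaling all 7 columns. The share of leaf genes next highest in callus was 39.6% with a pseudocount of 0.1 and 18.3% after rescaling all 7 columns. At 8-fold the median coding length was 840 bases in the bud set and 655.5 bases in the leaf set, the intronless share of the leaf set was 6.32%, and 10.4% of neighbours of bud genes were also in the bud set, where 4.61% of compared genes were. Among the log2 differences of the 17 named genes, 78 stayed within their deposited bounds and 24 moved. None was reversed, but Bol017820 fell below 4-fold under 3 of 4 rescalings. Values near 0 limit the folds: 59.4% of the bud set had 3 or fewer fragments in leaf.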
